A study of Homo sapiens with 9 samples.

Results

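HSP90, the cytosolic chaperone encoded by HSP90AA1 and HSP90AB1, and 8 genes around it were followed in LNCaP cells, an androgen-dependent human prostate cancer line, after androgen and after androgen plus celastrol. The other genes were FKBP5 and FKBP4, a pair of steroid receptor immunophilins, the co-chaperones PTGES3 (p23), STIP1 (HOP), CDC37, CHORDC1 and CACYBP, and HSF1, the transcription factor of the heat shock response. The genes were chosen by name, with earlier results of these data known. All 20 probe sets that the annotation pairs with exactly 1 of these 10 genes are described, of 22215 probe sets on the arrays, and the annotation places no further probe set of these genes among those shared by several genes. HSP90AA1 and CACYBP have 4 probe sets each, HSP90AB1, FKBP4, STIP1 and HSF1 have 2 each, and the others have 1 each.

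Each group held 3 arrays of separate LNCaP cultures that the labels call biological replicates. All cultures were first kept for 2 days in RPMI with serum stripped of steroids by charcoal. The first group then received 1 nM R1881, a synthetic androgen that cells do not metabolise, together with 1.25 µM celastrol, a plant triterpenoid, for 24 h. The second received 1 nM R1881 and DMSO, and the third only the solvents ethanol and DMSO for 24 h. For the androgen arrays the sample descriptions and treatment protocol give 24 h, whereas the titles give 6 h, and this conflict touches every comparison with that group. No arm with celastrol but without androgen was analysed here. Values are RMA intensities, a background-corrected and normalized brightness per probe set on a linear scale, and differences are given on the log2 scale with the standard error (SE) or 95% interval of a limma fit over all 9 arrays. Adjusted p is the Benjamini-Hochberg value over all 22215 probe sets, with a threshold of 0.05.

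HSP90 folds and activates client proteins in a cycle driven by ATP, and steroid receptors, the androgen receptor among them, are classical clients. In this cycle STIP1 hands the receptor from HSP70 to HSP90, PTGES3 stabilises the closed, ATP-bound form, and FKBP5 or FKBP4 binds the C-terminal end of HSP90. FKBP5 is a well known target gene of androgen, glucocorticoid and progesterone receptors, while CDC37 mainly delivers kinases. Celastrol is known as an inducer of the heat shock response and as a compound whose expression profile has been linked to inhibition of the HSP90 pathway.

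Depth of signal and identity of the cells were checked first. Array medians ran from 72.2 to 80.2. Of 16 probe sets of 8 luminal prostate and LNCaP marker genes, 13 lay above the array median on every array, whereas none of 27 probe sets of 13 basal, fibroblast, leukocyte and endothelial marker genes did. Summed, those 27 probe sets gave 958 to 1022 with androgen plus celastrol, 931 to 1009 with androgen and 1055 to 1267 with vehicle. The endothelial VWF among them lay above the array median on the vehicle arrays only, at 125, 107 and 106. Its means were 46.7 with androgen plus celastrol and 51.7 with androgen. The part of these markers in any result was not tested. Vehicle replicate 3 stood apart, with a standard deviation of 0.31 (log2) around its group means over all probe sets, against 0.12 to 0.21 on the other arrays. Over all probe sets, 1341 were higher and 992 lower with androgen than with vehicle (1821 and 738 with each array's median subtracted), 1534 were higher and 1258 lower with androgen plus celastrol than with androgen, and 2459 were higher and 1763 lower with androgen plus celastrol than with vehicle. The total for androgen against vehicle was 1552 without androgen replicate 2, and the total for androgen plus celastrol against androgen was 1844, 1750 and 1820 without androgen replicate 1, 2 or 3. In bulk RNA, fewer cells of a kind and less RNA per cell cannot be told apart.

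The regulatory sequence at the start of these genes is shown because HSF1 binds heat shock elements, inverted repeats of the unit GAA or its complement TTC spaced by any pair of bases, and the androgen receptor binds the arms AGAACA and TGTTCT, spaced by any 3 bases, or a single arm. RefSeq (GRCh38.p14) gave 14 windows of 250 bases before an annotated start for 8 of the 10 genes. A run of 3 units, searched as TTC, GAA, TTC and, on the other strand, GAA, TTC, GAA with 2 free bases between units (matches may overlap), stood in windows of HSP90AA1, HSP90AB1 and CHORDC1, and in 0.441% of all 35116 windows. These windows and 1 of the 2 FKBP5 windows read, 5′ to 3′ on the strand of the gene, with the heat shock units of each 3-unit run in capitals:
HSP90AA1 (chr14:102087045-102087294, minus strand): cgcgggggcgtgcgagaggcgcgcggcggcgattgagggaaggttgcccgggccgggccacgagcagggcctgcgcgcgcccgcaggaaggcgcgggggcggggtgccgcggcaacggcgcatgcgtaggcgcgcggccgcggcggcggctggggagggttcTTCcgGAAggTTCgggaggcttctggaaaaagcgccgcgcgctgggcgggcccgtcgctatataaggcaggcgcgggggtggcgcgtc
HSP90AB1 (chr6:44247693-44247942, plus strand): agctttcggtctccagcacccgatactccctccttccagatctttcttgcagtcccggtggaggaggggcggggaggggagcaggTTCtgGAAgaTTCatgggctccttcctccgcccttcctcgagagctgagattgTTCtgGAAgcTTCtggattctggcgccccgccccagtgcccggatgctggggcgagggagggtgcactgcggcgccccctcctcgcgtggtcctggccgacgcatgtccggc
CHORDC1 (chr11:90223050-90223299, minus strand): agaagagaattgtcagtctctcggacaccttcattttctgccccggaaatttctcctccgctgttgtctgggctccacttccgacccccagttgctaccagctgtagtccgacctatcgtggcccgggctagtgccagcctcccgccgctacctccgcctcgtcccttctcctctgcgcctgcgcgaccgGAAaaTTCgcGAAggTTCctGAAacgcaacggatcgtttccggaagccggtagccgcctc
FKBP5 (chr6:35688916-35689165, minus strand): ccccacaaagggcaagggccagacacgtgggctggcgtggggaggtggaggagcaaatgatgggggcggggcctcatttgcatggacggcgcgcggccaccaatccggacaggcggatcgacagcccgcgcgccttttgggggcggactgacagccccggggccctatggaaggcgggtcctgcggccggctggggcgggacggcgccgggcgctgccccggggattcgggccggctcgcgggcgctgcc
Counted back from the start, the run lay at -88 to -76 in HSP90AA1, at -165 to -153 and -112 to -100 in HSP90AB1, and as 3 overlapping matches from -60 to -38 in CHORDC1. The other windows of HSP90AA1 and HSP90AB1, and all those of FKBP5, CACYBP, STIP1, PTGES3 and CDC37, held no 3-unit run. The full androgen element was in none of the 14 windows and in 1 of all 35116. An arm of it stood in the windows of 1 of the 8 genes, the HSP90AB1 window printed above, and in 12.4% of all windows. These are matches of letters and not bound sites.

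FKBP5 (chr6:35573590-35728583) was higher with androgen than with vehicle, and with androgen plus celastrol it lay between these 2 groups. Its intensity was 969.8, 1102 and 1424 with androgen plus celastrol, 2839, 3252 and 2862 with androgen, and 129, 135 and 132 with vehicle. The 3 groups were fully separated, with the celastrol cultures between the other groups and the vehicle cultures closest to each other. Means were 1165 ± 233 with androgen plus celastrol, 2984 ± 232 with androgen and 132 ± 3.30 with vehicle (SD, n = 3 each). Androgen gave a log2 difference of 4.49 ± 0.14 (SE) over vehicle, 22.5-fold, with adjusted p = 5.1e-07 (limma). It was the number 4 rise among the 22215 probe sets. Adding celastrol changed FKBP5 by -1.37 ± 0.14 relative to androgen, a level 2.59-fold lower, with adjusted p = 0.000338. Against vehicle the combined treatment still gave 3.12 ± 0.14, or 8.70-fold, with adjusted p = 3.06e-06, and ranked 14 among rises. On the linear scale the excess over vehicle was 1033 intensity units with androgen plus celastrol and 2852 with androgen, so that 36.2% of the rise was present with celastrol. The comparisons with androgen share the androgen arrays, and those with vehicle share the vehicle arrays, so their values are not independent. Over all alternative settings tried, the 3 differences ranged from 4.34 to 4.57, from -1.53 to -1.25 and from 2.97 to 3.25, and each stayed past the threshold.

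FKBP4 (chr12:2794970-2805423), which encodes the related immunophilin that favours receptor transport and hormone binding, did not pass in any comparison. Probe set 200894_s_at had 759.7, 892 and 961 with androgen plus celastrol, 941, 1046 and 1139 with androgen, and 981, 1089 and 981 with vehicle. Probe set 200895_s_at had 2078, 2013 and 2068 with androgen plus celastrol, 2078, 2049.6 and 2294 with androgen, and 2078, 2216 and 2429.65 with vehicle. The celastrol cultures lay low in the first probe set, below all vehicle cultures, but overlapped the androgen cultures. The androgen difference over vehicle was 0.03 ± 0.11 and -0.07 ± 0.09 (SE, adjusted p = 0.922 and 0.772, limma). With celastrol against androgen it was -0.26 ± 0.11 (adjusted p = 0.212) and -0.06 ± 0.09 (adjusted p = 0.774). Without androgen plus celastrol replicate 1, the lowest array in the first probe set, these celastrol differences were -0.17 and -0.07. The 95% intervals of the celastrol differences reached down to a ratio of 0.697 and up to 1.10.

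**Figure D1:**
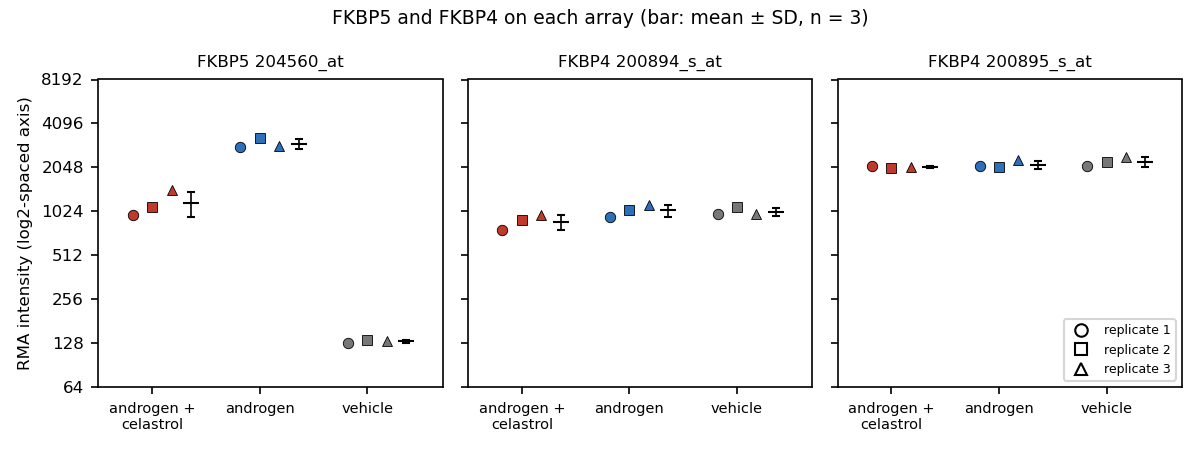
RMA intensity on a log2-spaced axis for FKBP5 and the 2 probe sets of FKBP4 in androgen plus celastrol, androgen and vehicle cultures; points are arrays, marked by replicate number, and bars are mean ± SD (n = 3). FKBP5 separates into 3 levels with means of 1165, 2984 and 132, while the FKBP4 points of the 3 groups lie close together.

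The pair was also compared within each array. The log2 intensity of FKBP5 minus the mean of the FKBP4 probe sets was -0.21 ± 0.20 with androgen plus celastrol, 1.00 ± 0.16 with androgen and -3.51 ± 0.04 with vehicle (SD, n = 3 each). These offsets carry the probes' own brightness, and only their differences between groups are read. The response of FKBP5 exceeded that of FKBP4 by 4.51 for androgen over vehicle, and fell below it by 1.21 for celastrol (log2 difference -1.21). The groups did not overlap in any of the 3 comparisons of this offset, and the exact two-sided permutation test gave p = 0.1 each time, the smallest that 3 against 3 arrays allow (adjusted p = 0.12 over 6 such tests).

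By the root mean square difference of centred log2 profiles over the 9 arrays, the 5 genes most like FKBP5 were KLK2 (0.20), SNAI2 (0.29), MAF (0.42), EAF2 (0.42) and OTULINL (0.44). SNAI2 encodes a zinc finger repressor, MAF a leucine zipper transcription factor, EAF2 a transcription elongation factor and OTULINL a relative of the deubiquitinase OTULIN. All 5 had high levels with androgen and lower ones with celastrol. KLK2, a kallikrein protease, had a mean of 1307 ± 358 with androgen plus celastrol, 4090.4 ± 589.7 with androgen and 175 ± 24.7 with vehicle (SD, n = 3 each). The celastrol differences from androgen were -1.67 for KLK2, -1.31 for SNAI2, -1.16 for MAF, -1.23 for EAF2 and -0.67 for OTULINL. These genes were picked for their likeness over the same arrays, so the values are a description.

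No probe set of the HSP90 genes themselves passed in any comparison. HSP90AA1 (chr14:102080742-102139749), the stress-inducible isoform, had in probe set 210211_s_at 8693, 8292 and 8943 with androgen plus celastrol, 7795, 8043 and 8290.4 with androgen, and 8418, 8290.4 and 7443 with vehicle. Probe set 211969_at had 6103, 6543 and 6205 with androgen plus celastrol, 5852, 6006 and 5744 with androgen, and 6599.8, 6754 and 6259.7 with vehicle. In both of these the celastrol cultures lay above all androgen cultures, by 0.10 ± 0.08 and 0.10 ± 0.08 (log2, SE), with adjusted p = 0.540 and 0.519 (limma). The other probe sets, 211968_s_at and 214328_s_at, differed by 0.05 ± 0.08 each and overlapped. Probe set 211969_at also lay lower in all androgen cultures than in all vehicle cultures, by -0.16 ± 0.08 (adjusted p = 0.301), and passed only with a variance trend and robust fit (adjusted p = 0.0417). For celastrol against androgen, the 95% intervals of the 4 probe sets together spanned ratios of 0.911 to 1.22. For androgen against vehicle they spanned 0.798 to 1.14, and for androgen plus celastrol against vehicle 0.850 to 1.22.

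HSP90AB1 (chr6:44246194-44253883), the constitutive isoform, had in probe set 200064_at 7536, 7803 and 8024 with androgen plus celastrol, 7834, 8024 and 8412 with androgen, and 8222, 8486 and 7677 with vehicle. Probe set 214359_s_at had 4422, 4434 and 4612 with androgen plus celastrol, 4246, 4561 and 4983 with androgen, and 4775, 4964 and 4637 with vehicle. Celastrol cultures overlapped androgen cultures in both. The celastrol differences from androgen were -0.05 ± 0.08 and -0.03 ± 0.08 (SE, adjusted p = 0.760 and 0.886, limma), with ratios of 0.851 to 1.12 inside the intervals. Against vehicle, the combined treatment gave -0.06 ± 0.08 and -0.09 ± 0.08, with adjusted p = 0.635 and 0.489.

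Within arrays, the mean log2 intensity of the HSP90AA1 probe sets minus that of HSP90AB1 was 0.47 ± 0.04 with androgen plus celastrol, 0.35 ± 0.06 with androgen and 0.40 ± 0.02 with vehicle (SD, n = 3 each). This offset was thus 0.12 higher with celastrol than with androgen and 0.07 higher than with vehicle, with no overlap between the arrays. The exact two-sided permutation p was 0.1 in both cases, the smallest possible, and 0.2 for androgen against vehicle, where the offset differed by -0.05 (adjusted p = 0.12 for the first 2 and 0.2 for the last, over 6 tests).

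Among the co-chaperones that act on HSP90 directly, PTGES3 (chr12:56663349-56688284), the p23 protein that closes the chaperone on its client, did not pass in any comparison. Its intensity was 7879, 7521 and 7752 with androgen plus celastrol, 7465, 7667 and 8211 with androgen, and 7606, 7453 and 7551 with vehicle. All groups overlapped, and the celastrol difference from androgen was -0.01 ± 0.07 (SE, adjusted p = 0.959, limma), with ratios of 0.882 to 1.12 inside the 95% interval.

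STIP1 (chr11:64185272-64204543), which bridges HSP70 and HSP90, did not pass either. Probe set 213330_s_at had 1395, 1615 and 1754 with androgen plus celastrol, 1693, 1804 and 1865 with androgen, and 1821, 1812 and 1653 with vehicle. Probe set 212009_s_at had 844, 1278 and 1461 with androgen plus celastrol, 1078, 1509.95 and 1530.35 with androgen, and 1523, 1509.6 and 1177 with vehicle. Replicate 1 was the lowest culture in both androgen-treated groups and replicate 3 in the vehicle group. The celastrol differences from androgen were -0.18 ± 0.10 and -0.22 ± 0.22 (SE, adjusted p = 0.373 and 0.647, limma), and -0.09 and 0.01 without androgen plus celastrol replicate 1.

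CDC37 (chr19:10391133-10403542), the kinase co-chaperone, had 893, 1067 and 1213 with androgen plus celastrol, 949.9, 1113 and 1209.98 with androgen, and 1020.1, 1072 and 659.7 with vehicle. The androgen difference over vehicle, 0.28 ± 0.20 (SE, adjusted p = 0.537, limma), was the highest among the genes other than FKBP5 in that comparison, and it was 0.05 without vehicle replicate 3, the low culture. The celastrol difference from androgen was -0.05 ± 0.20 (adjusted p = 0.928), with ratios of 0.708 to 1.32 inside the interval. Over the 20 probe sets, the lowest array of its group was androgen plus celastrol replicate 1 in 10, androgen replicate 1 in 12 and vehicle replicate 3 in 12. Over all probe sets these arrays were the lowest of their group in 45.2%, 25.3% and 48.9%.

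CHORDC1 (chr11:90200429-90223049), a zinc-binding HSP90 partner known as a heat shock-induced gene, lay slightly lower in both androgen-treated groups. Its intensity was 1925, 1687 and 1852 with androgen plus celastrol, 1942, 1766 and 1902 with androgen, and 2133, 2064 and 2124 with vehicle. All vehicle cultures were above all others, and the androgen-treated groups overlapped. The differences did not pass, at -0.17 ± 0.08 for androgen over vehicle (SE, adjusted p = 0.299, limma), -0.04 ± 0.08 for celastrol against androgen (adjusted p = 0.849) and -0.21 ± 0.08 for the combined treatment against vehicle (adjusted p = 0.120). The last one passed with quantile normalization, cyclic loess or a variance trend (limma, adjusted p between 0.0226 and 0.0439). It also passed with array weights, which had not converged (adjusted p = 0.0207).

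CACYBP (chr1:174999435-175012027) encodes a protein that binds calcyclin and the ubiquitin ligase SIAH1 and shares a domain with the HSP90 partner SGT1. It was the only gene besides FKBP5 with a probe set past the threshold in this fit. Probe set 211761_s_at had 1993, 2006 and 1878 with androgen plus celastrol, 1997, 1784 and 2063 with androgen, and 2790.3, 2896 and 2940.4 with vehicle. Both androgen-treated groups lay far below the vehicle cultures and overlapped each other. Androgen lowered it by a log2 difference of -0.56 ± 0.08 (SE, adjusted p = 0.0024, limma). The combined treatment lowered it by -0.55 ± 0.08 relative to vehicle (adjusted p = 0.00175). Celastrol against androgen gave 0.01 ± 0.08 (adjusted p = 0.966), with ratios of 0.882 to 1.15 inside the interval.

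The other CACYBP probe sets did not pass. Probe set 201381_x_at had 2067, 2205 and 2215 with androgen plus celastrol, 2215, 2177 and 2029 with androgen, and 2600.1, 2589.7 and 2437 with vehicle, again with all vehicle cultures highest. Its androgen difference of -0.25 ± 0.08 did not pass (SE, adjusted p = 0.0908, limma), nor did that of the combined treatment (-0.23 ± 0.08, adjusted p = 0.0735). It passed for androgen with quantile normalization (limma, adjusted p = 0.0231), cyclic loess (0.0423), a variance trend (0.0135) or array weights that had not converged (0.00687). For the combined treatment it passed with the same settings (adjusted p = 0.012, 0.0244, 0.0122 and 0.012) and with a pseudocount of 16 (0.0435). Probe set 210691_s_at had 1372, 1246 and 1533 with androgen plus celastrol, 1204, 1402 and 1117 with androgen, and 1431, 1641 and 1238 with vehicle, with all groups overlapping and an androgen difference of -0.21 ± 0.14 (adjusted p = 0.485). The dim probe set 201382_at lay between 50.8 and 75.6 on 8 arrays and at 180.5 on vehicle replicate 3. Its differences from vehicle were -0.59 ± 0.37 with androgen and -0.61 ± 0.37 with the combined treatment (SE, adjusted p = 0.456 and 0.301), and -0.11 and -0.12 without vehicle replicate 3. The suffixes _s_at and _x_at mark probe sets that can bind several transcripts or similar sequences, so the probe sets may not read the same RNA. The mean of the 4 probe sets fell by 0.40 with androgen (limma, adjusted p = 0.0187 over genes). With the combined treatment this mean fell by 0.36 relative to vehicle (adjusted p = 0.0193). It holds 201382_at, with its 180.5 on vehicle replicate 3, at equal weight and was not recomputed without that array.

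HSF1, the sensor that drives chaperone genes and is held back by HSP90 in unstressed cells, was dim. Probe set 202344_at had 84.6, 114 and 128 with androgen plus celastrol, 119, 109 and 105 with androgen, and 96.5, 139.8 and 92.0 with vehicle. Probe set 213756_s_at lay between 58.3 and 88.7 on all 9 arrays, around the array medians. The groups overlapped in both. Celastrol differences from androgen were -0.05 ± 0.19 and 0.07 ± 0.16 (SE, adjusted p = 0.929 and 0.857, limma), with ratios of 0.716 to 1.36 inside the intervals. Differences at such low intensities are understated by background signal.

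**Figure D2:**
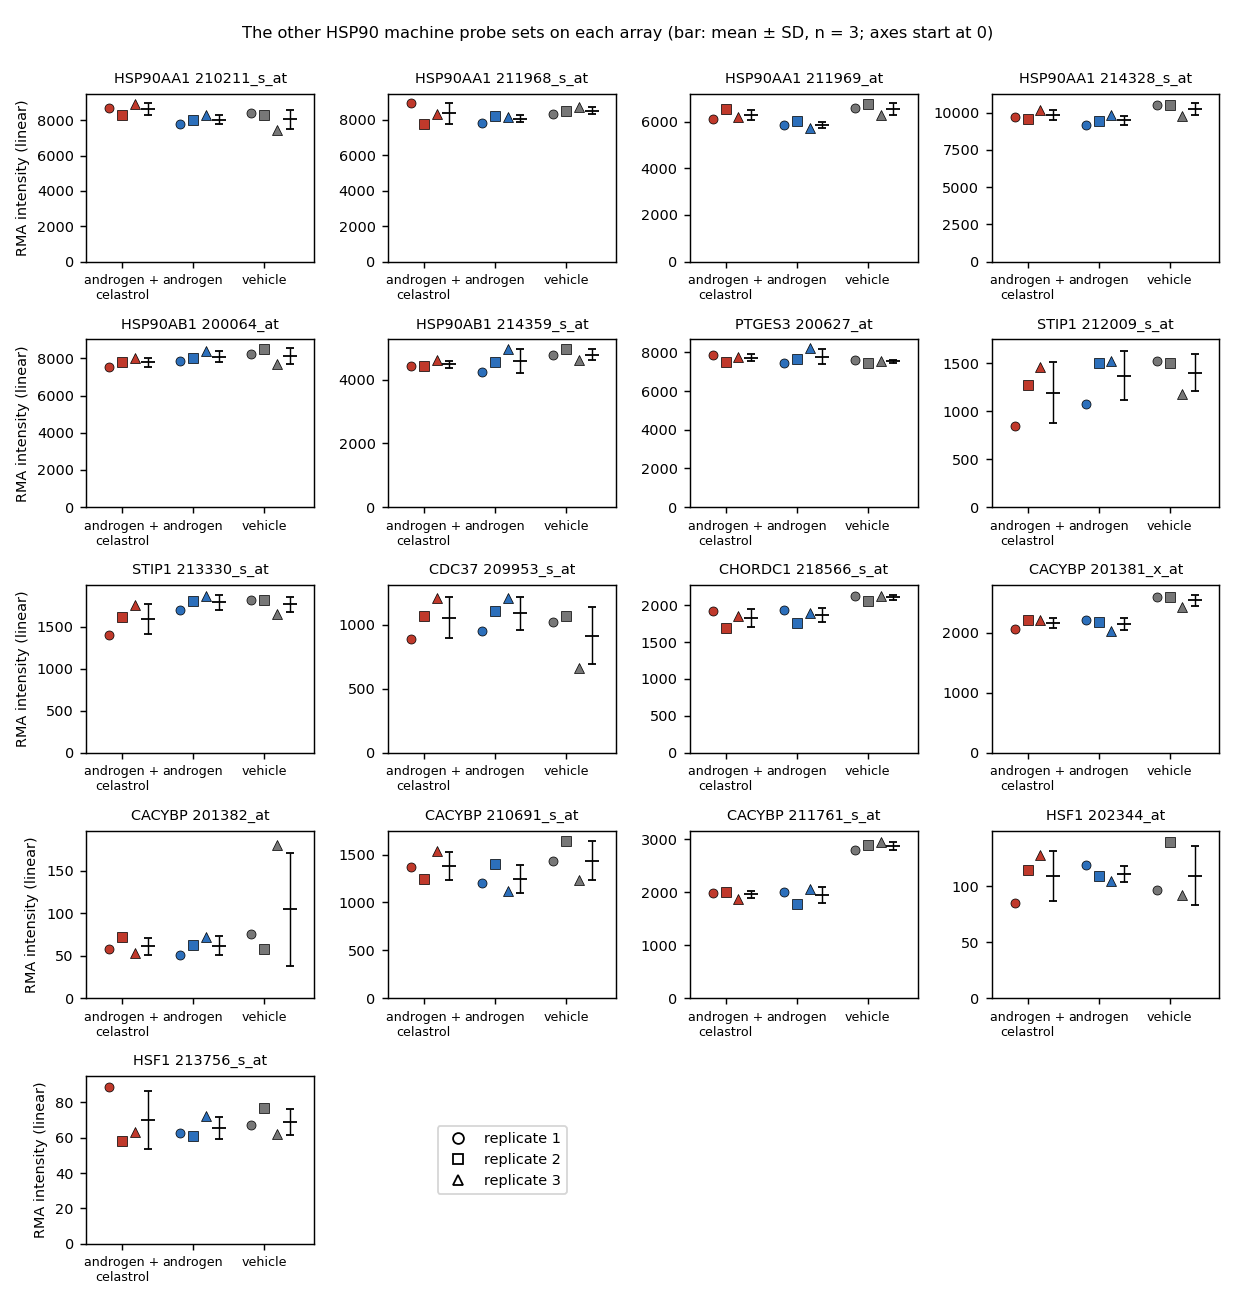
RMA intensity (linear axes starting at 0) of the other probe sets of the HSP90 genes, co-chaperones and HSF1 on each array, in androgen plus celastrol, androgen and vehicle cultures; bars are mean ± SD (n = 3). The vehicle points stand clearly above the other groups in CACYBP 211761_s_at, and vehicle replicate 3 lies apart in CDC37 and CACYBP 201382_at.

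Counted together, 2 of the 20 probe sets passed for androgen against vehicle, FKBP5 upwards and CACYBP 211761_s_at downwards, that is 10.0%, beside 10.5% of all probe sets (6.04% higher, 4.47% lower). For androgen plus celastrol against androgen, only FKBP5 passed, downwards, 1 of 20 or 5.0%, beside 12.6% of all (6.91% higher, 5.66% lower). No probe set was called higher in that comparison by limma, and none was higher at an unadjusted p under 0.05 either. For androgen plus celastrol against vehicle the same 2 probe sets as for androgen passed, again 10.0%, beside 19.0% of all (11.1% higher, 7.94% lower). Arrays of the groups did not overlap in 6, 3 and 6 of the 20, or 30.0%, 15.0% and 30.0%, beside 25.3%, 32.3% and 33.5% of all probe sets. Without FKBP5, the log2 differences of the other 19 ran from -0.59 to 0.28 for androgen, from -0.26 to 0.16 for celastrol against androgen and from -0.61 to 0.23 for the combined treatment against vehicle. The median size of a difference, whatever its sign, was 0.07, 0.05 and 0.11 over the 20 probe sets, and 0.15, 0.16 and 0.21 over all probe sets. Of the 19, 13 were below and 6 above 0 for androgen against vehicle, 11 were below and 8 above for celastrol against androgen, and 15 were below and 4 above for the combined treatment against vehicle.

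**Figure D3:**
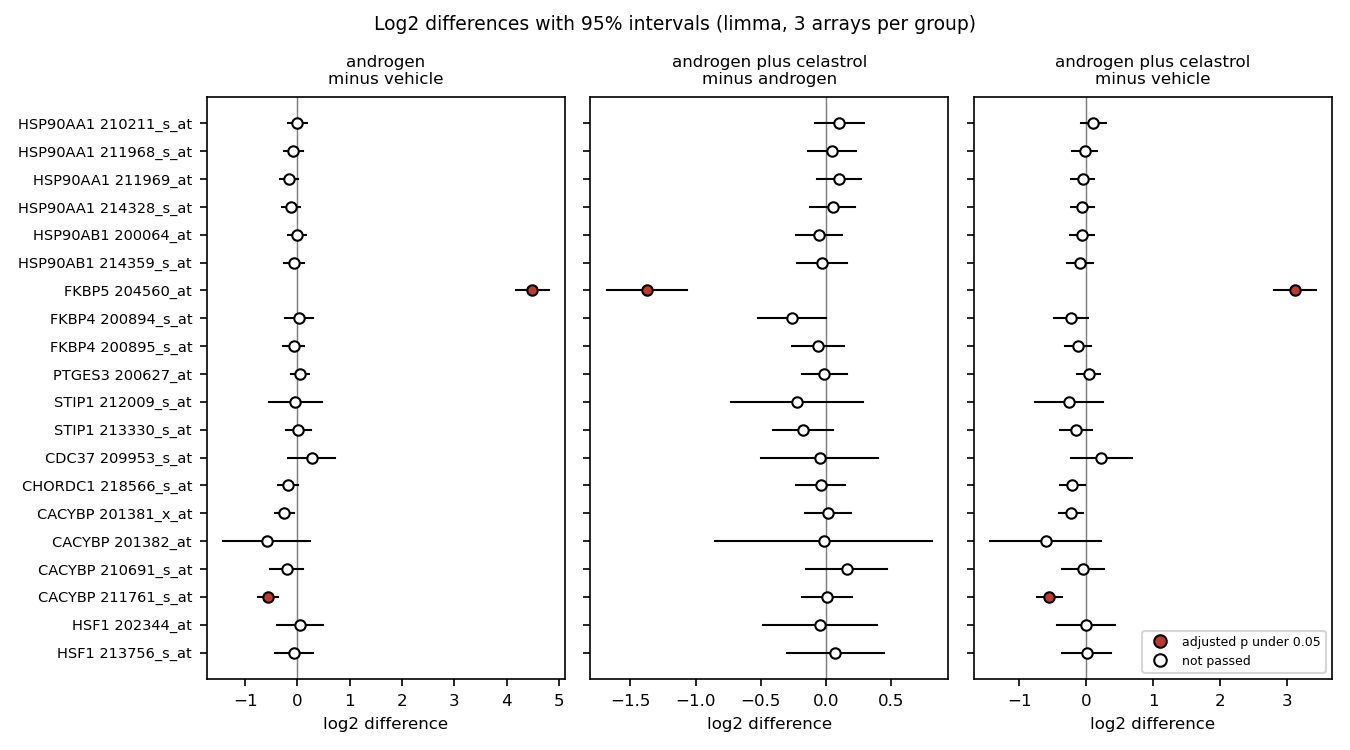
Log2 differences with 95% intervals (limma, 3 arrays per group) of the 20 probe sets for androgen minus vehicle, androgen plus celastrol minus androgen and androgen plus celastrol minus vehicle; filled points passed adjusted p of 0.05. FKBP5 lies at 4.49, -1.37 and 3.12 and CACYBP 211761_s_at at -0.56, 0.01 and -0.55, while the other points lie within 0.61 of 0.

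The wider HSP90 network was taken from lists of known genes. Of 34 probe sets of 20 other co-chaperone genes, none passed for androgen against vehicle (limma, 2 at an unadjusted p under 0.05; median 0.06, against -0.04 over all probe sets), beside 6.04% higher and 4.47% lower of all. The androgen difference of CDC37L1, a relative of CDC37, was 0.80 ± 0.23, with no overlap of arrays (adjusted p = 0.0634). Vehicle replicate 3 was low for CDC37L1, at 187 against 365 and 362 on the other vehicle arrays. This array enlarges each CDC37L1 difference from vehicle. For celastrol against androgen, 1 was higher and 2 were lower (median 0.02, against 0.02 over all), beside 6.91% higher and 5.66% lower of all. The riser was the receptor-associated FKBPL (0.48 ± 0.11, SE, adjusted p = 0.0251). The AAA+ ATPase RUVBL1, part of the R2TP co-chaperone complex, changed by -0.61 ± 0.09 (adjusted p = 0.00294) and the HSP70 partner ST13 by -0.31 ± 0.08 in 1 of 3 probe sets (adjusted p = 0.0338). Against vehicle, the combined treatment raised 3 and lowered 2, beside 11.1% higher and 7.94% lower of all, with CDC37L1 at 1.18 ± 0.23, FKBPL at 0.72 ± 0.11 and TELO2, in 1 of 2 probe sets, at -0.64 ± 0.16. That TELO2 probe set was dim, with means of 48.0 with androgen plus celastrol, 60.0 with androgen and 73.4 with vehicle.

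The organelle forms of HSP90 gave 2 called probe sets of 5 with androgen, both higher, beside 6.04% higher of all. HSP90B1, the HSP90 of the endoplasmic reticulum, rose with androgen in 2 of its probe sets, by 0.35 ± 0.08 and 0.36 ± 0.07 (SE, adjusted p = 0.0185 and 0.0119, limma), and in 4 with the combined treatment against vehicle (0.41 to 0.61). The mitochondrial TRAP1 changed by -0.40 ± 0.12 in the last comparison (adjusted p = 0.0441). Of the 5 probe sets, 4 were thus higher and 1 lower in that comparison, beside 11.1% higher and 7.94% lower of all. No probe set of either gene passed for celastrol against androgen, beside 6.91% higher and 5.66% lower of all, and none had an unadjusted p under 0.05. Whether the organelle forms responded differently from HSP90AA1 and HSP90AB1 was not tested.

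Other FK506-binding proteins gave 4 higher and 1 lower of 20 probe sets for androgen against vehicle, beside 6.04% higher and 4.47% lower of all. FKBP11, which resides in the endoplasmic reticulum, rose by 1.31 ± 0.13 and 0.98 ± 0.16 in its 2 probe sets (SE, adjusted p = 0.000266 and 0.00361, limma). FKBP2, also of the secretory pathway, rose by 0.72 ± 0.11 and FKBP9 fell by 0.71 on the log2 scale. With celastrol against androgen 2 were lower and none was higher (2 higher at an unadjusted p under 0.05), beside 6.91% higher and 5.66% lower of all. These were FKBP1B at -0.61 ± 0.10 in 1 of 4 probe sets and FKBP1A, the target of FK506 and rapamycin, at -0.35 ± 0.09 in 1 of 5. The FKBP1B probe set was dim, with means of 49.3 with androgen plus celastrol, 74.7 with androgen and 47.6 with vehicle. No FK506-binding protein besides FKBP5 had an androgen difference above 1.31.

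Heat shock genes and HSP70 partners had 1 higher and 5 lower of 21 probe sets for celastrol against androgen, beside 6.91% higher and 5.66% lower of all probe sets. The constitutive HSP70 gene HSPA8 changed by -0.48 ± 0.08 in its most changed probe set, DNAJB1, an HSP40 partner, by -0.55 ± 0.08 and DNAJA1 by -0.35 ± 0.09, while the mitochondrial HSPD1 rose by 0.29 ± 0.08, the last 3 each in 1 of 2 probe sets (SE, each past the threshold in limma). With androgen against vehicle, the HSP110-family gene HSPA4L was the 1 called probe set of the 21, at -1.30 ± 0.17 (adjusted p = 0.00131), beside 4.47% lower of all. For the combined treatment against vehicle 2 were higher and 5 lower, beside 11.1% higher and 7.94% lower of all. The higher ones were BAG3, an HSP70 partner, at 0.53 ± 0.13 and HSPD1 at 0.28 ± 0.08. HSPA4L was again among the lower ones, at -1.15 ± 0.17. BAG3 averaged 1058 with androgen plus celastrol, 999 with androgen and 737 with vehicle, where replicate 3 was low (601, against 803 and 807). BAG3 did not pass for androgen against vehicle or for celastrol against androgen. Among heat shock factor genes, HSBP1, which binds HSF1, changed by -0.62 ± 0.09 with celastrol in 1 of 2 probe sets (adjusted p = 0.00225), and the probe set of HSF4 did not pass (-0.10 ± 0.27, adjusted p = 0.893). Over the arrays as a whole, 53 measured genes had a 3-unit heat shock run in a window before their start. Of their 88 probe sets, 7.95% were higher and 4.55% lower with celastrol than with androgen, and of 15825 probe sets of genes whose windows held no such run, 7.31% were higher and 6.20% lower.

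HSP90 is known to act on client proteins, not on their RNA, which is what the arrays measure. Of 33 probe sets of 15 such genes, 3 were higher and 1 lower with androgen, beside 6.04% and 4.47% of all. With celastrol against androgen none was higher (limma, also at an unadjusted p under 0.05), beside 6.91% of all. In that comparison 7 probe sets, of 5 genes, were lower, beside 5.66% of all. The receptor kinase IGF1R rose with androgen by 2.50 ± 0.10 and 2.26 ± 0.15 in 2 of its 3 probe sets and changed by -0.82 ± 0.10 and -1.40 ± 0.15 with celastrol (SE, each past the threshold in limma). The other one, 208441_at, averaged 38.2 with androgen plus celastrol, 38.6 with androgen and 37.7 with vehicle. EGFR rose by 0.88 ± 0.13 with androgen and changed by -0.80 ± 0.13 with celastrol in 1 of its 6 probe sets. The brighter 201984_s_at differed by 0.62 ± 0.19 with androgen (adjusted p = 0.0741) and by -0.31 ± 0.19 with celastrol (adjusted p = 0.378), and the other 4 did not pass. The mitotic kinase PLK1 changed by -0.92 ± 0.14 with celastrol, and ERBB2 by -0.96 ± 0.13 with androgen in 1 of 2 probe sets.

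The steroid receptor genes NR3C1 (glucocorticoid receptor), NR3C2 (mineralocorticoid receptor), PGR (progesterone receptor), ESR1 and ESR2 (oestrogen receptors) gave no called probe set out of 19 in any comparison by limma. Of all probe sets, 10.5% were called for androgen against vehicle, 12.6% for celastrol against androgen and 19.0% for the combined treatment against vehicle. At an unadjusted p under 0.05 the receptor genes gave 0, 1 and 0 probe sets. Their group means lay between 22.7 and 96.3, and none of the 19 lay above the array median on every array. The gene of the androgen receptor was not analysed here.

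**Figure D4:**
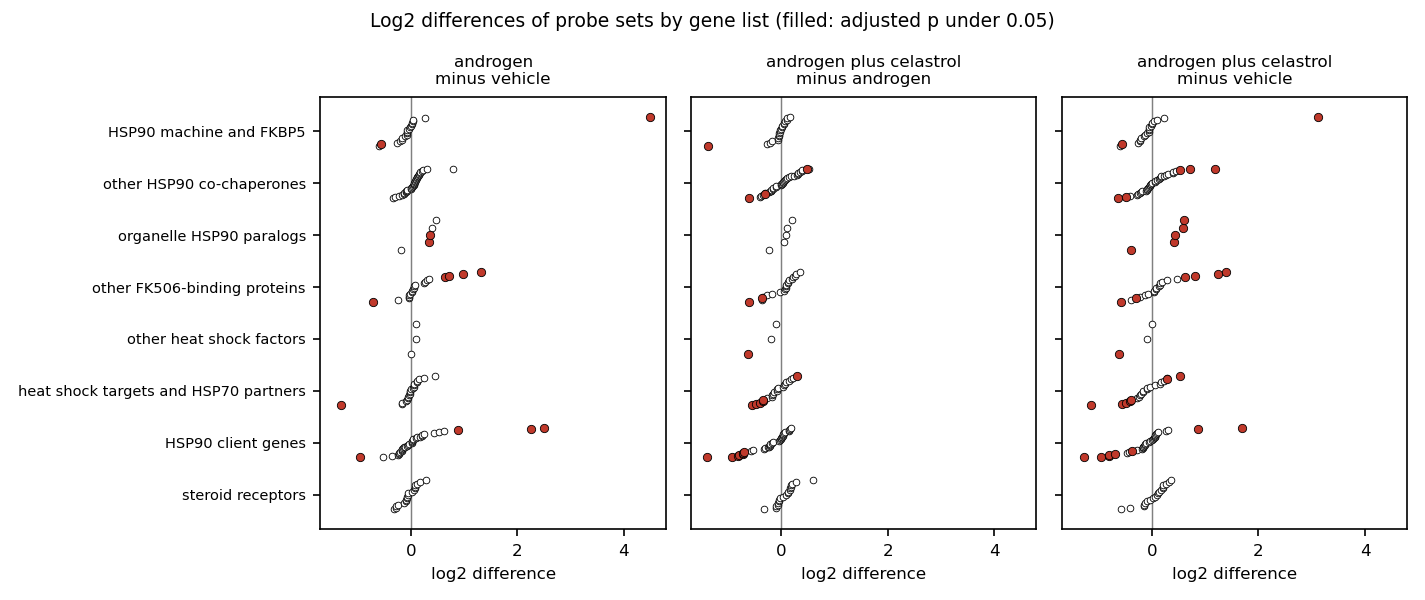
Log2 differences of every probe set of the HSP90 machine with FKBP5 and of 7 related gene lists, for androgen minus vehicle, androgen plus celastrol minus androgen and androgen plus celastrol minus vehicle; filled points passed adjusted p of 0.05 and height within a row only spreads the points. FKBP5 stands at 4.49, -1.37 and 3.12 in the top row. The 7 filled points of HSP90 client genes in the middle panel, from 5 genes, all lie below 0.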

How the data were processed

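Total RNA of 9 LNCaP cultures was hybridised as biotin-labelled cRNA to Affymetrix arrays, per the labels' protocols. The authors deposited linear RMA intensities (method per the submitters' processing notes, version not stated there). RMA is designed to bring arrays to a common distribution, so differences in total RNA cannot be read from its values. The deposited probe set values were not fully alike between arrays. Medians ran from 72.2 to 80.2, and upper quartiles from 332 on vehicle replicate 3 to 409 on androgen plus celastrol replicate 3. Log2 was taken with a pseudocount of 0. Of 22215 probe sets 19724 have 1 gene in the platform annotation, 568 several and 1923 none listed, and 19707 were matched to current symbols through gene IDs. No pair of arrays shared more than 1012 identical values.

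All 9 arrays were fitted per probe set with limma 3.58.1 in R 4.3.3 (lmFit and eBayes, 6 residual and 2.80 prior degrees of freedom). P-values measure the spread between these cultures, and 3 arrays per group limit the precision. Permutation tests used scipy 1.17.1. Genes and lists were chosen with earlier results of these data known; from each list the text names up to 3 genes with the largest change past the threshold per comparison, all steroid receptors and the 5 genes nearest to FKBP5. Other values were named after they were seen.

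The labels number replicates 1 to 3 in each group. Deviations from group means correlated over probe sets at 0.39, 0.37 and 0.63 between same-numbered androgen and vehicle arrays. Androgen 1 with vehicle 2 correlated at 0.41 and androgen 2 with vehicle 1 at 0.30. The other unlike-numbered pairs, each with a replicate 3, lay between -0.57 and -0.40. The values thus set replicate 3 apart but do not show that replicates 1 and 2 pair by number. A fit with a replicate block was run as an alternative. Same-numbered arrays of androgen plus celastrol correlated with androgen at -0.09, 0.22 and -0.16, and with vehicle at -0.26, 0.12 and -0.27. The labels do not say what a shared number stands for. No scan dates were at hand to test as batches.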

Additional observations from a re-analysis of the deposited data

How the results depend on the processing

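Each of the 20 probe sets was recomputed under up to 22 alternatives in 3 comparisons. Of 1260 such values 1148 kept their sign and their side of the threshold, 95 turned their sign with no call in either setting (median size of the reported value 0.02), 16 passed where they had not, 1 no longer passed and none turned its sign with a call. The count of these probe sets lower with androgen than with vehicle, 1 in the fit as reported, was 2 with quantile normalization, cyclic loess or array weights, 3 with a variance trend and robust fit, and 0 with the brightest probe set per gene, which leaves out CACYBP 211761_s_at by construction. For androgen plus celastrol against vehicle the count was 3 with quantile normalization, cyclic loess, a trend and robust fit or array weights, 2 with a pseudocount of 16, 0 with the brightest probe set per gene, and 0 in the 2 compared groups alone with a replicate block, where CACYBP 211761_s_at had adjusted p = 0.0667. In that last setting 1462 of all probe sets passed, against 4222 as reported. The replicate block over all arrays changed no call of these probe sets. Over all probe sets, 1497, 1845 and 2725 genes passed for androgen, celastrol against androgen and the combined treatment against vehicle when probe sets of a gene were averaged (12165 genes tested), and 5136, 4524 and 6645 probe sets with array weights that had not converged, against 2333, 2792 and 4222. Leaving out 1 array gave 1552 to 2631, 1750 to 3919 and 3326 to 4365. No count of these 20 probe sets moved without any 1 array, nor without vehicle replicate 3 and androgen plus celastrol replicate 1 together, which was added after the data were seen. The conflict over the hours of the androgen arrays could not be tested, and low signal limits HSF1 and CACYBP 201382_at.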
